A study of Mus musculus with 6 samples.

Results

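Transcripts of interleukin, interferon, TNF and TGF-beta family receptors were compared in MLL-ENL/NrasG12D cells, a mouse leukemia line, after culture with an inhibitor of the arginine methyltransferase PRMT5. The genes were taken by symbol, as every row of the table that begins with an interleukin, interferon, TNF receptor or ligand, TGF-beta, activin or BMP receptor name, with Fas, Il6st and Lifr added. The rule found 64 of 11644 genes. Of these, 8 encode ligands of the TNF family rather than receptors, and Il1rn encodes a secreted antagonist, so the set is not made of receptors alone. The inhibitor group held 3 libraries of cells given EPZ015666 at 5 µM. The control group held 3 libraries of cells given the solvent DMSO. Both groups were sampled at 72 h, had been treated again on day 2, and carry the MLL-ENL fusion oncogene together with activated Nras. A single cell line was used, and the labels do not say whether it is a clone. The libraries are named independent replicates without a statement of what was repeated, so p-values measure the spread between these 6 libraries, which may be technical.

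These receptors work through a few shared routes. Type I and type II cytokine receptors pair a ligand-binding chain with a shared signalling chain and act through JAK kinases and STAT factors. Receptors of the IL-1 family recruit MyD88 and IRAK kinases, TNF receptors recruit TRAF or death-domain adaptors, and TGF-beta family receptors are kinases that phosphorylate SMAD proteins. In myeloid cells they set the response to inflammatory and differentiation signals, and decoy receptors and soluble antagonists limit that response. Transcript levels say nothing of the protein on the cell surface, which was not measured here.

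Libraries held 11335948 to 15551525 reads assigned to genes with the inhibitor and 15505127 to 19197912 with DMSO. Taken across all genes, which do not count as replicates, log2 values of 2 libraries of a group correlated at 0.987 to 0.992 (Pearson), and those of an inhibitor and a DMSO library at 0.951 to 0.962. Of 12 myeloid markers 11 were measured, with 8 risen and 3 fallen (all genes: 23.6% up, 22.9% down). Their summed normalized count was 27268 to 31893 with the inhibitor and 11494 to 13929.7 with DMSO. The largest gains in it were those of Lyz2 (mean 10702 with the inhibitor and 897 with DMSO), Itgam (6314 and 1667) and Csf1r (3912 and 1235). The 3 fallen were Cebpa (873 and 1269), Mpo (342 and 847) and Ctsg (1885 and 2369). Of the 8 B cell markers only Cd79b was measured, at a sum of at most 22.6 with the inhibitor and 28.5 with DMSO. The T cell list had 2 of 8 genes measured, Lck and Cd28, and the sum of 3557 to 4076 with the inhibitor and 4145 to 4322 with DMSO was almost wholly Cd28. The part of the myeloid marker changes in the receptor values was not tested. In bulk RNA more cells of a type and more RNA per cell cannot be told apart. Prmt5 itself stood at 2508 ± 373 normalized counts with the inhibitor and 2784 ± 366 with DMSO (SD, n = 3 each; limma adjusted p = 0.316), which does not check a compound that acts on the enzyme.

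Of the 64 genes, 27 rose, 8 fell and 29 did not pass the test (limma-trend, two-sided, adjusted p under 0.05 over all 11644 genes). Of all genes 46.5% were called, 23.6% upward and 22.9% downward. The rises thus made up a larger share of the members (42.2%) than of all genes, and the falls a smaller one (12.5%). The median log2 fold change was 0.32 for the members and 0.00123 for all genes. By at least 2-fold on the log2 scale, 16 members rose and 1, Tnfrsf14, fell, where 7.16% and 3.04% of all genes did. In 30 members all inhibitor libraries lay above all DMSO libraries and in 11 below, where all genes gave 28.2% and 27.9%. No gene of the table has fewer than 10 reads in all 6 of its libraries. Of the members, 9 had fewer than 10 reads in every DMSO library and are thus in the table only through the inhibitor libraries, while Tnfsf13b is there only through a DMSO library. All 9 rose. They are in the table because an inhibitor library reached 10 reads, which favours a rise, so they give no support for the direction. They make up 9 of the 16 rises of at least 2-fold. The other 55 had 18 rises, 8 falls and a median log2 fold change of 0.26, with 7 rises and 1 fall of at least 2-fold. The shares of all genes with at least 10 reads in a DMSO library were not computed, so these counts have no matched baseline. Among the 39 members with a mean of at least 50 normalized counts over all libraries, 15 rose and 6 fell, where 23.2% and 25.7% of all genes at that level did. Of the 25 members under that mean, 12 rose and 2 fell, where 26.0% and 8.63% of such genes did. Those 12 rises include all 9 members that are in the table only through the inhibitor libraries. The count of 12 thus holds rises that inclusion favoured, and it gives no support for a direction of low members. The number of falls was the less stable one. It was 5 without inhibitor library 1, 5 without inhibitor library 2, 4 without DMSO library 1 and 3 without DMSO library 3.

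**Figure D1:**
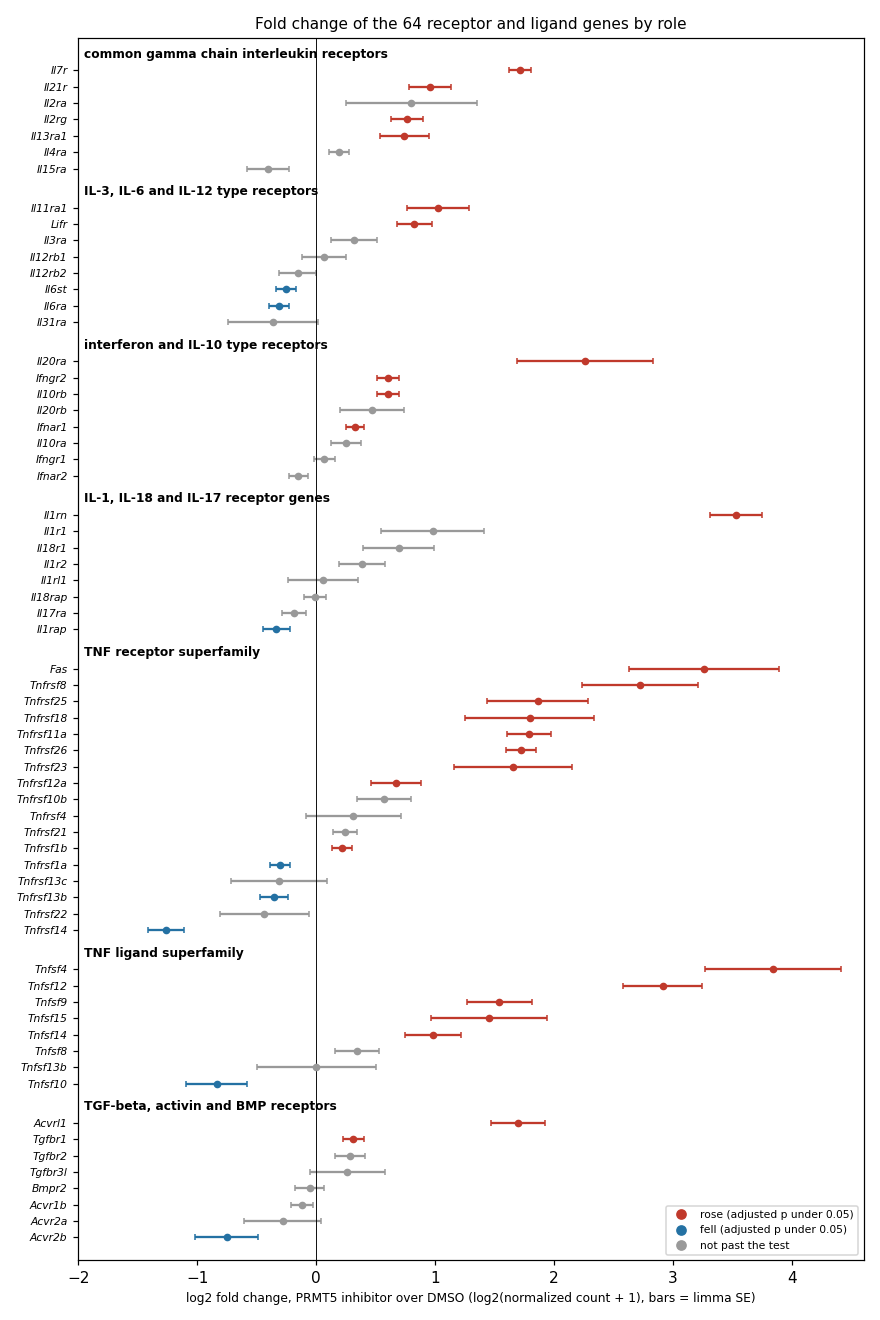
Log2 fold change (inhibitor over DMSO, x axis, with limma standard errors) of each of the 64 genes, grouped by role and coloured by call. Rises reach well to the right for Tnfsf4, Il1rn and Fas, whereas Tnfrsf14 alone lies below -1.

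**Figure D2:**
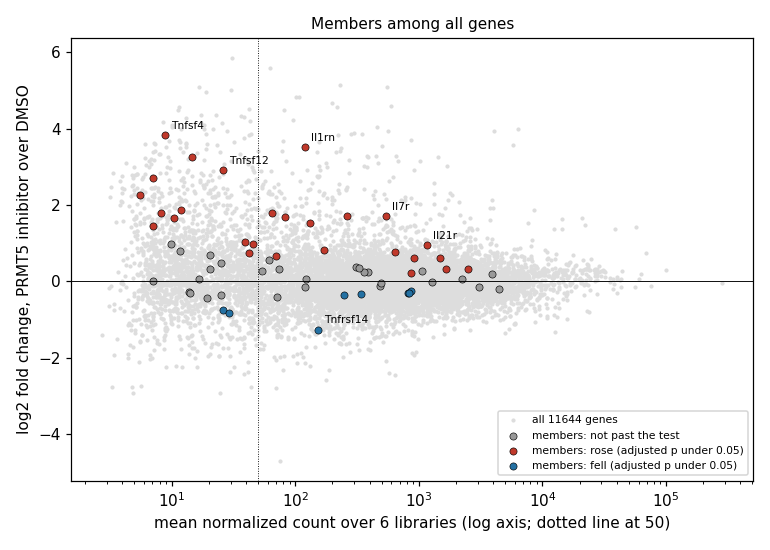
Log2 fold change (y axis) against mean normalized count over 6 libraries (log x axis) for all 11644 genes in grey, with the 64 members drawn larger and coloured by call. Members with few counts reach large fold changes, and Il1rn, at 3.53 on the log2 scale, has the largest of those right of the dotted line at 50.

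Promoter sequences from RefSeq (GRCm38.p6, the mm10 assembly) were matched to 53 of the 64 genes, and the 250 bases before each annotated start were searched on both strands for 4 short motifs. The STAT motif TTCNNNGAA was found for 11 of 53 members and 7.32% of the genes of the table. The AP-1 motif TGANTCA was found for 7 members and 5.31% of genes, the PU.1 motif GAGGAAG for 8 and 13.2%, and the interferon-response motif GAAANNGAA for 6 and 7.65%. Over all 32851 promoters the shares were 7.02%, 6.75%, 10.6% and 7.13% in the same order. Genes with several annotated starts count once, if any start holds the motif. A match is a description of the letters and says nothing of binding. Shown are 4 of the called members described in detail, to set starts that hold a motif beside a GC-rich one that holds none. The choice does not show how common the motifs are among called members. Tnfrsf11a, Il2rg, Lifr, Il21r, Ifnar1 and the other annotated starts of Il1rn hold none, whereas Tnfrsf8, Fas and a start of Tnfrsf25 hold at least 1. Bases run 5′ to 3′ up to the start, for Il1rn up to the most upstream of its 3 annotated starts, and capitals mark the motif named. Il7r (chr15:9529877-9530126, minus strand) has a STAT motif, Il1rn (chr2:24336610-24336859, plus strand) an AP-1 motif, Tnfrsf14 (chr4:154928078-154928327, minus strand) an interferon-response motif read on the opposite strand, and Ifngr2 (chr16:91546809-91547058, plus strand) has none of the 4. Their GC content is 44.0%, 53.2%, 49.2% and 74.0% in that order. The starts are those of RefSeq. In the GENCODE annotation the minus-strand genes Il7r and Tnfrsf14 begin further upstream, at 9530176 and 154928563. The windows shown for Il7r and Tnfrsf14 thus lie inside their GENCODE gene models.
Il7r: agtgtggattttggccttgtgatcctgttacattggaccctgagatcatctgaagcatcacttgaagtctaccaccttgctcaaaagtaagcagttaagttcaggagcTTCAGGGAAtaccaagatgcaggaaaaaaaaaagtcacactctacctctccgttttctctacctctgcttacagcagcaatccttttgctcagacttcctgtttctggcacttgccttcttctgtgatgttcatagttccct
Il1rn: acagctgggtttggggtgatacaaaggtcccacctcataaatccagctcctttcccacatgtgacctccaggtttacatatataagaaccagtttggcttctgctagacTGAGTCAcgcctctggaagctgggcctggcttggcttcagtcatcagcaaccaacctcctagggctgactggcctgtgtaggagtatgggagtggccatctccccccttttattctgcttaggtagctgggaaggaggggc
Tnfrsf14: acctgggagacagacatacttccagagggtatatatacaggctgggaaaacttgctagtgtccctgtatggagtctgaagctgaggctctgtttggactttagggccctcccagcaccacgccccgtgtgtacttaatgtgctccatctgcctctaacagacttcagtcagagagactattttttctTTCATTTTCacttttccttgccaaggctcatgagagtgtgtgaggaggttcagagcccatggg
Ifngr2: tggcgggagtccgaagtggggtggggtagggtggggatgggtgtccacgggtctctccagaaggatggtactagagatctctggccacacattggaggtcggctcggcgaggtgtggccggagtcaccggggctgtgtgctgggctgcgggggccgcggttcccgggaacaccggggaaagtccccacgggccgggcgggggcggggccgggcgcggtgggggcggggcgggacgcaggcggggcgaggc

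Of 7 genes for receptors of the common gamma chain interleukins and their partner chains, 4 rose, 3 did not pass and there was no fall. The shares of all genes were 23.6% up and 22.9% down. Il7r (chromosome 15, 9505788 to 9530176, minus strand), the ligand-binding chain of the IL-7 receptor and best known from lymphocyte development, stood at 836, 856 and 820.0 normalized counts in the inhibitor libraries, against 264, 266 and 235 in the DMSO libraries. The groups were far apart and each was tight, with a 3.29-fold difference of means and a log2 fold change of 1.71 ± 0.09 (SE; limma adjusted p = 1.38e-07), the smallest adjusted p of all 64 genes. The STAT motif printed above lies before the RefSeq start of this gene, but inside its GENCODE gene model. Il2rg (chromosome X, 101264378 to 101268255, minus strand), the common gamma chain itself, had 749, 770.5 and 917 with the inhibitor, against 419, 595 and 435 with DMSO. Here DMSO library 2 lay above the other DMSO libraries but under every inhibitor library (1.68-fold, limma adjusted p = 7.57e-04). Il21r, which joins the common gamma chain to bind IL-21, had 1469, 1527 and 1525 with the inhibitor, against 613, 1126 and 679 with DMSO. The inhibitor libraries lay close together, whereas DMSO library 2 lay between them and the other DMSO libraries (1.87-fold, limma adjusted p = 9.58e-04). Il13ra1, a chain of the IL-13 receptor that pairs with Il4ra, was at 49.0, 55.9 and 53.8 with the inhibitor, against 28.5, 36.3 and 29.5 with DMSO, a modest 1.68-fold difference without overlap (limma adjusted p = 0.0117). Il4ra, the abundant chain shared by IL-4 and IL-13 receptors, had 4163 ± 144 with the inhibitor and 3656 ± 253 with DMSO (SD, n = 3 each) and did not pass (limma adjusted p = 0.0811). Il15ra, which presents IL-15, had 61.1 ± 8.43 with the inhibitor and 80.8 ± 5.76 with DMSO (limma adjusted p = 0.0765). The scarce Il2ra had 14.4 ± 6.87 with the inhibitor and 8.92 ± 5.85 with DMSO (limma adjusted p = 0.254). Relative to Il7r, Il2rg was lower with the inhibitor: the ratio of their normalized counts within a library was 0.896, 0.900 and 1.12 with the inhibitor and 1.59, 2.24 and 1.85 with DMSO. These and 6 further ratios between chains were chosen after the values were seen and were not tested. The annotation places another gene model, Gm20489, over part of the Il2rg exons on the same strand, so some reads may belong to it.

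**Figure D3:**
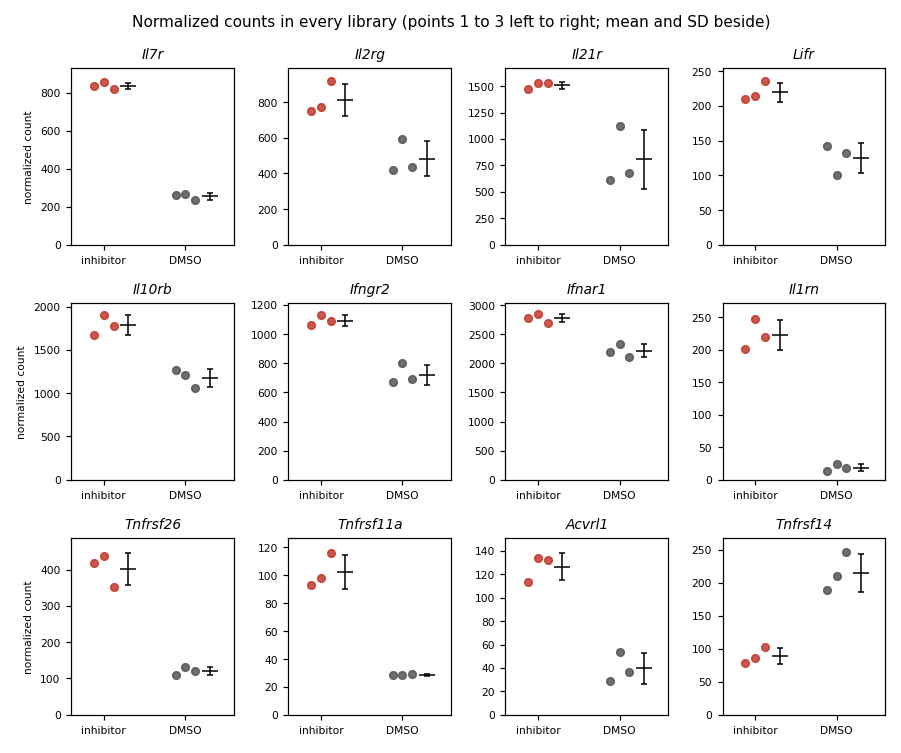
Normalized counts (y axis, linear from 0) of 12 members in each of the 3 inhibitor libraries (red) and 3 DMSO libraries (grey), with the mean and SD beside them. No panel has overlapping groups, Tnfrsf14 alone is lower with the inhibitor, and DMSO library 2 stands off from its group in Il21r and Il2rg.

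Of 8 receptor genes of the IL-3, IL-6 and IL-12 type, 2 rose and 2 fell, shares near those of all genes (23.6% and 22.9%). Lifr, the receptor chain for leukemia inhibitory factor, which signals together with gp130, had 209, 214 and 236 normalized counts with the inhibitor, against 142, 101 and 132 with DMSO. Every inhibitor library lay above the DMSO libraries (1.76-fold, log2 fold change 0.82 ± 0.15 SE, limma adjusted p = 8.40e-04). Its partner Il6st, the gp130 chain shared by the IL-6 family, was lower, at 752, 812 and 789.9 with the inhibitor, against 973, 882 and 954 with DMSO. The difference was small (1.19-fold lower, limma adjusted p = 0.0252) and the call was lost without inhibitor library 1 (adjusted p = 0.0637), DMSO library 1 (0.0936) or DMSO library 3 (0.0865). Il6ra, the IL-6 binding chain, had 761, 698 and 741 with the inhibitor and 955, 907 and 871 with DMSO, without overlap (1.24-fold lower, limma adjusted p = 0.00916). The ratio of Il6st to Il6ra overlapped between groups, at 0.988, 1.164 and 1.06 with the inhibitor and 1.02, 0.972 and 1.10 with DMSO. Il11ra1, the IL-11 binding chain, had 44.9, 42.0 and 73.2 with the inhibitor, against 26.9, 21.0 and 27.5 with DMSO (2.12-fold, limma adjusted p = 0.00701), with inhibitor library 3 well above the other inhibitor libraries. The mouse genome holds near-identical copies of this gene, so its reads are less certain. Il12rb1 (124 ± 6.64 with the inhibitor and 121 ± 34.8 with DMSO), Il12rb2 (113 ± 9.77 with the inhibitor and 126 ± 19.0 with DMSO), Il3ra (81.5 ± 10.6 with the inhibitor and 65.7 ± 12.8 with DMSO) and Il31ra (20.8 ± 2.10 with the inhibitor and 29.9 ± 15.97 with DMSO) did not pass, with adjusted p of 0.796, 0.440, 0.200 and 0.456 by limma. Il12rb2 shares exon sequence with Serbp1 on the other strand, and the strand setting of the counting is not given in the sources used here. Without DMSO library 2, Il31ra passed downward (adjusted p = 0.0346).

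Among interferon and IL-10 type receptors 4 of 8 genes rose and there was no fall (all genes: 23.6% up, 22.9% down). In the receptors for interferon-gamma, IL-10 and type I interferon, 1 chain rose and its partner did not pass. Ifngr2 (chromosome 16, 91547072 to 91565623, plus strand), the chain that brings JAK2 to the interferon-gamma receptor, had 1059, 1131 and 1090.1 normalized counts with the inhibitor, against 673, 802 and 689 with DMSO (1.52-fold, log2 fold change 0.60 ± 0.09 SE, limma adjusted p = 2.51e-04). Il10rb (chromosome 16, 91406164 to 91425834, plus strand), the chain shared by receptors of IL-10, IL-22 and lambda interferons, had 1676, 1902 and 1779 with the inhibitor, against 1263, 1205 and 1061 with DMSO. Ifngr2 has the GC-rich promoter shown above. Both genes gained about as much, and neither had overlapping groups (1.52-fold for Il10rb, limma adjusted p = 2.44e-04). Ifnar1 (chromosome 16, 91485238 to 91507441, plus strand), a chain of the type I interferon receptor, rose less, with 2777, 2851 and 2700.1 with the inhibitor, against 2199, 2339 and 2115 with DMSO (1.25-fold, limma adjusted p = 0.00481). Ifnar2 (chromosome 16, 91372783 to 91405589, plus strand), the other chain of that receptor, lay on the other side, with 2936, 2847 and 2868 with the inhibitor and 3202, 3357 and 3039 with DMSO. The groups did not overlap, yet the difference did not pass (limma adjusted p = 0.133). Ifngr1, which binds interferon-gamma, had 2311 ± 161 with the inhibitor and 2202 ± 155 with DMSO (limma adjusted p = 0.536), and Il10ra, which binds IL-10, had 424 ± 64.4 with the inhibitor and 355 ± 32.7 with DMSO (limma adjusted p = 0.127; 0.0265 without inhibitor library 1). Within a library the rising chain gained on its partner in each of these receptors. The ratio of Ifnar1 to Ifnar2 was 0.946, 1.001 and 0.942 in the inhibitor libraries and 0.687, 0.697 and 0.696 in the DMSO libraries. For Ifngr2 over Ifngr1 the ratio was 0.496, 0.462 and 0.464 with the inhibitor and 0.288, 0.359 and 0.339 with DMSO, and for Il10rb over Il10ra it was 4.74, 4.34 and 3.71 with the inhibitor and 3.58, 3.10 and 3.29 with DMSO. None of the 3 ratios overlapped between groups. For Ifnar1 over Ifnar2 this had to be so, since Ifnar1 was higher and Ifnar2 lower in every inhibitor library. Il20ra, a chain of the IL-20 receptor, was at 8.17, 5.59 and 16.1 with the inhibitor, against 0.815, 1.61 and 0.982 with DMSO (limma adjusted p = 0.00697). It is in the table only through the inhibitor libraries, from 27 reads in all with the inhibitor and 4 with DMSO, a ratio of 8.96 with an exact 95% counting interval of 3.12 to 35.2. Its partner Il20rb had 29.3 ± 5.90 with the inhibitor and 20.8 ± 3.16 with DMSO (limma adjusted p = 0.169).

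The 4 genes Ifnar2, Il10rb, Ifnar1 and Ifngr2 lie side by side on the plus strand of chromosome 16 within a stretch of 192.8 kb (91372783 to 91565623, mm10), and 3 of them rose. With a spacing of at most 200 kb, 30 of the 64 genes fell into 12 groups of neighbours. The 5 genes of the IL-1 and IL-18 receptor cluster of chromosome 1, Il1r2, Il1r1, Il1rl1, Il18r1 and Il18rap, did not pass, 5 of 5. Tnfsf9 and Tnfsf14 on chromosome 17 both rose. With 46.5% of all genes called, shared calls of neighbours were not tested against chance. In the cluster of chromosome 7, Tnfrsf26 and the scarce Tnfrsf23 rose and Tnfrsf22 between them did not pass. Ifnar2 and Il10rb share exon sequence with a joint gene model, Gm21970, that spans both, so reads of a transcript running through both cannot be assigned with certainty.

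**Figure D4:**
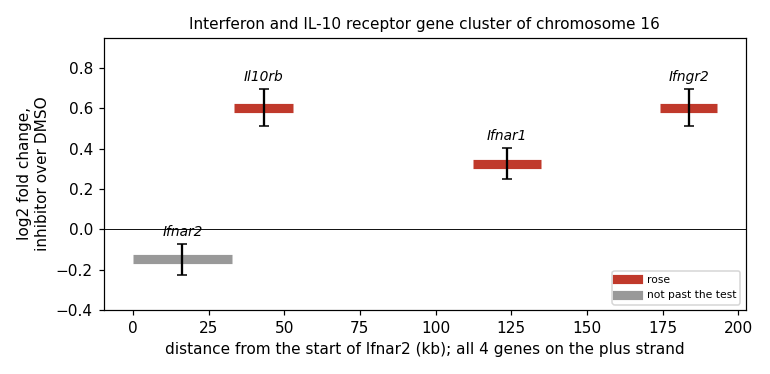
Log2 fold change (y axis, bars are limma SE) of the 4 receptor genes of chromosome 16, drawn at their places as distance in kb from the start of Ifnar2. Il10rb, Ifnar1 and Ifngr2 lie above 0 and Ifnar2 just below it.

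In the IL-1, IL-18 and IL-17 group 1 of 8 genes rose and 1 fell (all genes: 23.6% up, 22.9% down). The rise was large. Il1rn (chromosome 2, 24336853 to 24351494, plus strand) encodes the IL-1 receptor antagonist, a secreted protein that blocks the IL-1 receptor. It had 201, 248 and 219.5 normalized counts with the inhibitor, against 13.9, 25.0 and 17.7 with DMSO. The lowest inhibitor library lay far above the highest DMSO library, with an 11.8-fold difference of means and a log2 fold change of 3.53 ± 0.22 (SE; limma adjusted p = 3.52e-07). Its most upstream promoter is the one shown with the AP-1 motif. The receptors that bind IL-1, Il1r1 and Il1r2, did not pass. Il1r1, the signalling receptor, had 13.4 ± 5.03 with the inhibitor and 6.23 ± 2.30 with DMSO (limma adjusted p = 0.0822), and passed upward without inhibitor library 1 (0.0428) or DMSO library 2 (0.0461). Il1r2, the decoy receptor, had 301, 371 and 364 with the inhibitor, against 199.8, 379 and 241 with DMSO, where DMSO library 2 was the highest of all 6 libraries (limma adjusted p = 0.126). Without DMSO library 2 it passed upward with a log2 fold change of 0.65 (limma adjusted p = 0.00141). Il1rap, the accessory chain shared by the IL-1 family, had 302, 344 and 265 with the inhibitor and 389, 375 and 380.0 with DMSO, 1.26-fold lower (limma adjusted p = 0.0294). That call was lost without inhibitor library 1 (0.0578) or 3 (0.0971) and without DMSO library 1 (0.0794) or 3 (0.0709). Il18rap, the accessory chain of the IL-18 receptor, stood at 1279.6 ± 113 with the inhibitor and 1286 ± 76.1 with DMSO (limma adjusted p = 0.941), whereas its binding partner Il18r1 was scarce at 25.4 ± 4.44 with the inhibitor and 15.5 ± 4.47 with DMSO (0.0800). Il1rl1, the IL-33 receptor, had 16.8 ± 0.437 with the inhibitor and 16.3 ± 3.001 with DMSO (limma adjusted p = 0.893). Il17ra, the common chain of IL-17 receptors, was among the most abundant members, with 4139 ± 242 with the inhibitor and 4733 ± 628 with DMSO, and did not pass (limma adjusted p = 0.149).

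Of the 17 genes of the TNF receptor superfamily, 9 rose and 3 fell (all genes: 23.6% up, 22.9% down). Of the 12 with at least 10 reads in a DMSO library 4 rose. Among all 17, the rises numbered 5 without DMSO library 1 and 5 without inhibitor library 2. Tnfrsf26 (chromosome 7, 143607659 to 143628722, minus strand), a mouse receptor of the cluster that also holds the decoy TRAIL receptor genes, had 419, 436 and 353 normalized counts with the inhibitor, against 111, 132 and 119.8 with DMSO (3.33-fold, log2 fold change 1.72 ± 0.13 SE, limma adjusted p = 1.44e-06). Tnfrsf11a (chromosome 1, 105780718 to 105847981, plus strand), the RANK receptor that drives osteoclast formation from myeloid precursors, had 93.0, 97.9 and 116 with the inhibitor, against 28.5, 28.3 and 29.5 with DMSO. The DMSO values of Tnfrsf11a were nearly identical, and every inhibitor value was far above them (3.56-fold, limma adjusted p = 1.56e-05). Tnfrsf14 (chromosome 4, 154921933 to 154928563, minus strand), the herpesvirus entry mediator, which binds LIGHT and the inhibitory receptor BTLA, moved the other way, with 78.7, 86.7 and 102 in the inhibitor libraries and 189, 209.9 and 246 in the DMSO libraries. It was the largest fall of the set, 2.41-fold, with a log2 fold change of -1.26 ± 0.15 (SE; limma adjusted p = 5.57e-05). Its RefSeq promoter, which lies inside the GENCODE gene model, is the one shown with the interferon-response motif.

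The receptors for TNF itself changed by little and in opposite directions. Tnfrsf1a, the broadly expressed receptor with a death domain, had 779, 755 and 717 normalized counts with the inhibitor, against 955, 901 and 924 with DMSO (1.23-fold lower, limma adjusted p = 0.00907). Tnfrsf1b, the receptor without a death domain that prevails on immune cells, had 934, 941 and 895 with the inhibitor, against 758, 852 and 773 with DMSO (1.163-fold higher, limma adjusted p = 0.0491). The call on Tnfrsf1b sits at the threshold. It was lost with log2 CPM scaled by TMM (0.0719), edgeR (0.0723) and DESeq2 (0.0871). It was also lost without inhibitor library 1 (0.0892), 2 (0.138) or 3 (0.0535) or DMSO library 1 (0.159) or 3 (0.146). The ratio of Tnfrsf1b to Tnfrsf1a within a library was 1.20, 1.25 and 1.25 with the inhibitor and 0.794, 0.945 and 0.836 with DMSO. It could not overlap, since Tnfrsf1b was higher and Tnfrsf1a lower in every inhibitor library, so it adds no support to the Tnfrsf1b call. Their ligand Tnf, which the naming rule does not take, was at 2522, 2659.7 and 3079 with the inhibitor, against 887, 1813 and 1035 with DMSO (2.21-fold, limma adjusted p = 5.22e-04), with DMSO library 2 the highest of its group.

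Tnfrsf12a, the TWEAK receptor Fn14, had 72.5, 99.3 and 87.2 normalized counts with the inhibitor, against 42.4, 68.6 and 52.0 with DMSO. Its groups nearly touch (1.59-fold, limma adjusted p = 0.0208), and the call was lost without inhibitor library 2 (0.0986) or 3 (0.0531) or DMSO library 1 (0.0819) or 3 (0.0513). Tnfrsf13b, the TACI receptor for BAFF and APRIL, fell to 223, 197 and 237 with the inhibitor, against 293, 266 and 281 with DMSO (1.28-fold lower, limma adjusted p = 0.0238). That call was lost with DESeq2 (0.0526), without inhibitor library 2 (0.106) and without DMSO library 1 (0.0816) or 3 (0.0668). Tnfrsf10b, the mouse death receptor for TRAIL and a known p53 target, had 72.9 ± 14.6 with the inhibitor and 49.0 ± 12.1 with DMSO and narrowly missed the threshold (limma adjusted p = 0.0554). It passed without inhibitor library 1 (0.0396), without DMSO library 3 (0.0263) and with the replicate block (0.0251). Tnfrsf21, a death-domain receptor, had 391.5 ± 9.25 with the inhibitor and 332 ± 24.9 with DMSO (limma adjusted p = 0.0654; 0.0399 without DMSO library 2). Tnfrsf22, a mouse decoy receptor for TRAIL, Tnfrsf4, the OX40 receptor, and Tnfrsf13c, the BAFF receptor, were scarce, with inhibitor means of 17.1, 23.1 and 12.5 and DMSO means of 21.8, 18.1 and 15.5, and did not pass.

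Of the risen TNF receptors, 5 were scarce in DMSO and are in the table only through the inhibitor libraries. Fas, the death receptor, had 34.7, 21.0 and 23.7 normalized counts with the inhibitor, against 0, 6.46 and 1.96 with DMSO, from 71 reads in all with the inhibitor and 10 with DMSO. Its log2 fold change of 3.26 ± 0.63 (SE; limma adjusted p = 0.00140) was 2.51 without DMSO library 1 and 3.96 without DMSO library 2. Tnfrsf8, the CD30 receptor, had 13.3, 12.6 and 12.9 with the inhibitor, against 1.63, 0.807 and 0.982 with DMSO (limma adjusted p = 8.23e-04), which is 34 reads with the inhibitor and 4 with DMSO and a ratio of 11.3 with an exact 95% counting interval of 4.03 to 43.8. Tnfrsf25, the receptor of the ligand TL1A, had 18.9 ± 4.11 with the inhibitor and 4.73 ± 2.23 with DMSO (limma adjusted p = 0.00358). Tnfrsf18, the GITR receptor, had 13.0 ± 2.98 with the inhibitor and 3.52 ± 2.34 with DMSO (limma adjusted p = 0.0171), and lost the call without inhibitor library 2 (0.0552) or 3 (0.0638) or DMSO library 1 (0.0503). Tnfrsf23, a mouse decoy receptor for TRAIL, had 15.8 ± 2.14 with the inhibitor and 5.10 ± 3.61 with DMSO (limma adjusted p = 0.0168), and lost it without inhibitor library 2 (0.0690) or DMSO library 1 (0.0525). The counting intervals given for Tnfrsf8, Il20ra and Tnfsf4 cover counting error only. They leave out the wider spread between libraries and the inclusion of these genes through the inhibitor libraries, so they do not bear on the direction.

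Of 8 TNF family ligand genes 5 rose and 1 fell (all genes: 23.6% up, 22.9% down). Of the rises 3, Tnfsf12, Tnfsf4 and Tnfsf15, are in the table only through the inhibitor libraries, and of the other 5 ligands 2 rose. Tnfsf9, the ligand of the co-stimulatory receptor CD137, had 173, 207 and 199 normalized counts with the inhibitor, against 59.5, 111 and 42.2 with DMSO. All inhibitor libraries lay higher although DMSO library 2 was far above its group (2.72-fold, log2 fold change 1.54 ± 0.27 SE, limma adjusted p = 7.87e-04). Tnfsf12, the ligand TWEAK, had 34.7, 50.3 and 54.9 with the inhibitor, against 4.89, 7.27 and 3.93 with DMSO (8.70-fold, limma adjusted p = 3.53e-05). Its receptor Tnfrsf12a is described above. The exons of Tnfsf12 are shared on the same strand with Tnfsfm13, a model that joins this gene to the next ligand gene, and the reads could come from either. Tnfsf14, the ligand LIGHT, had 67.4, 47.5 and 68.9 with the inhibitor, against 27.7, 25.8 and 38.3 with DMSO (2.00-fold higher, limma adjusted p = 0.00522), while its receptor Tnfrsf14 was lower. Tnfsf4, the OX40 ligand, had 24.5, 11.2 and 16.1 with the inhibitor, against 0.815, 0 and 0 with DMSO (limma adjusted p = 2.35e-04). This rests on 47 reads with the inhibitor and 1 with DMSO, a ratio of 62.4 with an exact 95% counting interval of 10.7 to 2517, and the OX40 receptor Tnfrsf4 overlapped between groups. Tnfsf15, the ligand TL1A, had 10.6 ± 0.738 with the inhibitor and 3.62 ± 2.47 with DMSO (limma adjusted p = 0.0291). Tnfsf15 and its receptor Tnfrsf25 are both in the table only through the inhibitor libraries, so inclusion favoured their common direction, which is no support for a link between them. The Tnfsf15 call was lost with DESeq2 (0.113) and without any 1 library other than DMSO library 2 (0.0688 to 0.0890). Tnfsf10, the death ligand TRAIL, fell to 20.8 ± 4.36 with the inhibitor, against 37.7 ± 5.70 with DMSO (1.81-fold lower, limma adjusted p = 0.0181). The Tnfsf10 call was lost with DESeq2 (0.0693) and without inhibitor library 2 (0.0640) or DMSO library 3 (0.0809). Tnfsf8, the CD30 ligand, had 352, 391.5 and 343 with the inhibitor, against 212, 406 and 269 with DMSO and did not pass (limma adjusted p = 0.155), but passed upward without DMSO library 2 (0.00200). Tnfsf13b, which encodes BAFF, had 6.78 ± 1.61 with the inhibitor and 7.45 ± 4.28 with DMSO (limma adjusted p = 0.999).

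**Figure D5:**
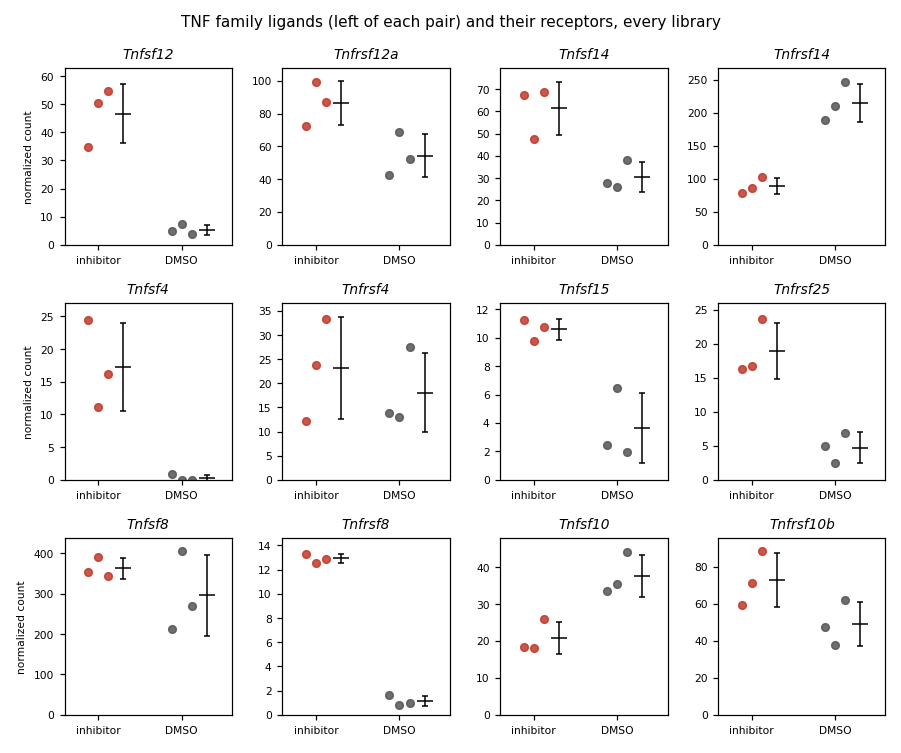
Normalized counts (y axis, linear from 0) of 6 TNF family ligands, each with its receptor in the panel to its right, in the 3 inhibitor libraries (red) and 3 DMSO libraries (grey), with the mean and SD beside. Tnfsf12, Tnfsf4, Tnfsf15, Tnfrsf25 and Tnfrsf8 are in the table only through the inhibitor libraries, which favours higher values there. Tnfsf14 is higher while Tnfrsf14 is lower, and Tnfsf10 is lower while the groups of Tnfrsf10b overlap.

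Of the 8 TGF-beta, activin and BMP receptor genes, 2 rose (25.0%) and 1 fell (12.5%), where 23.6% and 22.9% of all genes did. Acvrl1 (chromosome 15, 101128522 to 101145336, plus strand), the receptor kinase ALK1, known mainly from endothelial cells, where it binds circulating BMPs, had 113, 134 and 132 normalized counts with the inhibitor, against 28.5, 54.1 and 36.3 with DMSO. The groups lay far apart (3.19-fold, log2 fold change 1.70 ± 0.22 SE, limma adjusted p = 1.01e-04). Of 10 fibroblast and endothelial markers 4 were measured, with a summed normalized count of 4004 to 4251 with the inhibitor and 3162 to 3730.1 with DMSO. Among these Vwf rose (347 ± 94.0 with the inhibitor and 120.3 ± 32.7 with DMSO), Cdh5 was at 12.05 ± 6.35 with the inhibitor and 8.72 ± 2.71 with DMSO, Pecam1 at 3801 ± 218 with the inhibitor and 3240.5 ± 336 with DMSO, and Pdgfrb at 4.86 ± 2.04 with the inhibitor and 6.25 ± 3.86 with DMSO. Their part in the Acvrl1 value was not tested. Acvrl1 shares some exon sequence with an antisense gene. Tgfbr1, the signalling TGF-beta receptor kinase, had 1768, 1972 and 1736 with the inhibitor, against 1408, 1612 and 1391 with DMSO (1.24-fold, limma adjusted p = 0.0130), and lost the call without inhibitor library 2 (0.0730) or DMSO library 1 (0.0510) or 3 (0.0588). Tgfbr2, the ligand-binding partner, had 1193, 1183 and 1127 with the inhibitor, against 761, 1162 and 995 with DMSO and did not pass (limma adjusted p = 0.0903), but passed upward without DMSO library 2 (0.00634). The ratio of Tgfbr1 to Tgfbr2 overlapped between groups, at 1.48, 1.67 and 1.54 with the inhibitor and 1.85, 1.39 and 1.40 with DMSO. Acvr2b, an activin-binding receptor, was 1.73-fold lower at 19.2 ± 2.65 with the inhibitor, against 33.2 ± 7.16 with DMSO (limma adjusted p = 0.0353). The Acvr2b call was lost with DESeq2 (0.114) and without any 1 library other than DMSO library 2 (0.0527 to 0.154). The activin receptor kinase Acvr1b (466 ± 2.28 with the inhibitor and 507 ± 32.4 with DMSO), the BMP receptor Bmpr2 (487 ± 76.4 with the inhibitor and 504 ± 51.3 with DMSO), Acvr2a (12.2 ± 0.889 with the inhibitor and 15.3 ± 3.42 with DMSO) and Tgfbr3l (60.3 ± 27.9 with the inhibitor and 48.5 ± 16.1 with DMSO) did not pass, with adjusted p of 0.302, 0.739, 0.5001 and 0.521 by limma.

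Levels between genes were compared as normalized counts per kb of exon, with exon lengths from GENCODE. The chains Ifnar2, Ifngr1, Il4ra and Il17ra stood at the top in both groups. Ifnar2 had 866 per kb with the inhibitor and 961 with DMSO, Ifngr1 812 with the inhibitor and 773 with DMSO, Il4ra 694 with the inhibitor and 609 with DMSO, and Il17ra 478 with the inhibitor and 546 with DMSO. Il10rb, Ifnar1 and Il21r followed in the inhibitor libraries with 469, 467 and 453 per kb. With DMSO they had 309, 373 and 243 per kb. There Tnfrsf1a, at 358 per kb, lay above Il10rb and Il21r, and Ifngr2, at 191, lay below them. A level of at least 200 per kb with the inhibitor was reached by 12 of the 64 genes. Il7r had 179.5 per kb with the inhibitor and 54.6 with DMSO, Il1rn 40.2 with the inhibitor and 3.41 with DMSO, and Tnfsf4 9.38 with the inhibitor and 0.148 with DMSO. Which transcripts of a gene were present was not measured, so these levels are approximate.

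DMSO library 2 stood apart for some members. It was the highest DMSO library for 33 of the 64 genes. The share of all genes that were highest in it was not computed. Skews of this kind were not limited to it. Inhibitor library 1 was the lowest of its group for 35 of the 64 genes and DMSO library 1 for 31. In 5 genes with a group mean of at least 50, DMSO library 2 exceeded both other DMSO libraries by at least 1.5-fold, namely Il12rb1, Il1r2, Il21r, Tnfsf8 and Tnfsf9. By the same rule inhibitor library 3 stood above its group in 2 genes and DMSO library 3 in 1. In the pathway lists, DMSO library 2 was the highest DMSO library for 21 of 31 JAK-STAT genes and 7 of 15 IL-1 and IL-17 adaptors. It was so for 14 of 27 TNF receptor adaptors, 13 of 24 SMAD pathway genes and 7 of 13 receptors under other names. Of the 14 measured ligands of the cytokine list, 10 were highest in DMSO library 2 among the DMSO libraries and 4 were not. As examples chosen after their values were seen, Il6, the ligand of Il6ra, stood at 4.09, 4.20 and 7.53 normalized counts with the inhibitor and 0.815, 28.3 and 0 with DMSO, Inhba, an activin subunit, at 32.7, 33.6 and 24.8 with the inhibitor and 1.63, 22.6 and 2.95 with DMSO, and Lta at 10.2, 15.4 and 11.8 with the inhibitor and 1.63, 15.3 and 0.982 with DMSO. Without this library 32 members rose and 9 fell. No call was lost, and Il1r1, Il1r2, Tgfbr2, Tnfrsf21, Tnfsf8 and Il31ra were added. Over all genes 5346 were called without it, in place of 5418.

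The shares of JAK-STAT genes called were near those of all genes (23.6% up and 22.9% down). Of 31 measured JAK-STAT genes 6 rose (19.4%) and 8 fell (25.8%), with a median log2 fold change of -0.04. Among the falls the kinase Tyk2, which serves Ifnar1 and Il10rb, had 877 ± 53.5 with the inhibitor and 1276 ± 25.8 with DMSO, the IL-2 and IL-3 family factor Stat5a had 657 ± 76.8 with the inhibitor and 1043 ± 46.6 with DMSO, and the phosphatase Ptpn11 had 2844 ± 237 with the inhibitor and 4255 ± 196 with DMSO (SD, n = 3 each; limma adjusted p = 2.45e-04, 2.05e-04 and 2.34e-04). The kinase Jak2 (939.8 ± 30.5 with the inhibitor and 1332 ± 104 with DMSO) fell as well, whereas Jak1 (3166 ± 261 with the inhibitor and 2638 ± 144 with DMSO) rose (limma adjusted p = 5.55e-04 and 0.0279). Stam2, an adaptor of receptor sorting, rose to 762 ± 71.3 with the inhibitor, against 462 ± 37.9 with DMSO (limma adjusted p = 1.58e-04), and the interferon feedback gene Usp18 (436 ± 42.7 with the inhibitor and 208 ± 121 with DMSO) and the suppressor Socs3 (28.8 ± 2.85 with the inhibitor and 12.5 ± 8.74 with DMSO) also rose (limma adjusted p = 0.00420 and 0.0180). DMSO library 2 lay above its group for both, yet under every inhibitor library. The DMSO values were 139, 348 and 136 for Usp18 and 8.15, 22.6 and 6.87 for Socs3. The JAK-STAT rises numbered 3 without inhibitor library 2, 3 without inhibitor library 3, 2 without DMSO library 1 and 3 without DMSO library 3.

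Among 15 measured adaptors of IL-1 and IL-17 receptors 4 rose (26.7%) and 1 fell (6.67%), where 23.6% and 22.9% of all genes did. Irak1, the kinase recruited by MyD88, fell to 1306 ± 105 with the inhibitor, against 2484 ± 110.1 with DMSO (1.90-fold lower, limma adjusted p = 6.63e-06). Its relative Irak2 (539.9 ± 30.1 with the inhibitor and 281 ± 109 with DMSO), the ubiquitin ligase Peli1 (713 ± 9.67 with the inhibitor and 400.3 ± 55.3 with DMSO), the kinase Map3k7 (2731 ± 195 with the inhibitor and 1907 ± 76.5 with DMSO) and Traf3ip2 (74.6 ± 6.28 with the inhibitor and 51.3 ± 2.38 with DMSO), an adaptor of IL-17 receptors, rose (limma adjusted p = 0.00158, 7.84e-05, 3.81e-04 and 0.0240 in that order). Irak2 had 209, 406 and 228 in the DMSO libraries, with DMSO library 2 above its group. Of 27 TNF receptor adaptors 7 rose (25.9%) and 6 fell (22.2%), shares near those of all genes, with a median log2 fold change of -0.02. Tnfaip3, the NF-kB feedback enzyme A20, rose to 726 ± 40.4 with the inhibitor, against 293 ± 116 with DMSO (limma adjusted p = 2.17e-04). Rbck1, a subunit of the linear ubiquitin ligase, fell to 1657 ± 87.6 with the inhibitor, against 2605 ± 39.6 with DMSO (limma adjusted p = 4.43e-05). Nsmaf, which binds Tnfrsf1a, fell to 1353 ± 20.8 with the inhibitor, against 1721 ± 22.7 with DMSO (limma adjusted p = 0.00233), and Tank, a TRAF-binding regulator, rose to 890.1 ± 101 with the inhibitor, against 635 ± 58.1 with DMSO (limma adjusted p = 0.00292). The rises in that list numbered 4 without inhibitor library 1, 3 without inhibitor library 2 and 3 without DMSO library 3, and the falls 3 without inhibitor library 2. Of 24 SMAD pathway genes 4 rose (16.7%) and 3 fell (12.5%). The repressor Tgif2 (179 ± 16.4 with the inhibitor and 339 ± 11.8 with DMSO) and Smad5 (1191 ± 53.9 with the inhibitor and 1532 ± 105 with DMSO) fell, while the ubiquitin ligase Nedd4l (648 ± 27.7 with the inhibitor and 455 ± 41.7 with DMSO) and Id2 (516 ± 57.2 with the inhibitor and 307 ± 80.9 with DMSO), a target of BMP signalling, rose (limma adjusted p = 6.31e-05, 0.00384, 0.00120 and 0.00210 in that order). For Id2 the DMSO values were 258, 400 and 262, highest in DMSO library 2. The SMAD rises numbered 2 without inhibitor library 2 and 7 without DMSO library 2, and the falls 5 with log2 CPM scaled by TMM, with edgeR and with the replicate block.

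Receptors of the same families that carry other names were counted beside them. Of 13 measured, 7 rose and 1 fell (all genes: 23.6% up, 22.9% down). Eda2r, a TNF receptor family member for ectodysplasin and a known p53 target, had 74.6, 65.7 and 69.9 normalized counts with the inhibitor, against 4.08, 3.23 and 0.982 with DMSO (25.4-fold, limma adjusted p = 5.02e-06). It had fewer than 10 reads in every DMSO library and is in the table only through the inhibitor libraries. Of the other 12 receptors 6 rose. The GM-CSF receptor chain Csf2ra had 243, 271 and 406 with the inhibitor, against 126, 107 and 119.8 with DMSO (2.60-fold, limma adjusted p = 9.80e-05). The beta chains Csf2rb (562 ± 50.7 with the inhibitor and 375 ± 22.7 with DMSO) and Csf2rb2 (65.1 ± 20.6 with the inhibitor and 14.2 ± 1.42 with DMSO) rose too (limma adjusted p = 7.22e-04 and 9.41e-05), but they are close copies and may share reads. The G-CSF receptor Csf3r, which is also among the myeloid markers (109 ± 23.3 with the inhibitor and 57.0 ± 20.8 with DMSO) and the TNF receptor family genes Cd40 (15.2 ± 1.78 with the inhibitor and 4.81 ± 3.70 with DMSO) and Ltbr (1472 ± 66.8 with the inhibitor and 1241 ± 51.9 with DMSO) rose (limma adjusted p = 0.00899, 0.0164 and 0.0233). Relt, another gene of that family, fell (377 ± 52.2 with the inhibitor and 548 ± 13.9 with DMSO, limma adjusted p = 0.00170). The falls numbered 2 without inhibitor library 3. Of 53 listed cytokine ligands 14 were measured, of which 5 rose and 1 fell. The IL-10 gene Il10 was at 14.3, 16.8 and 7.53 with the inhibitor, against 0.815, 1.61 and 1.96 with DMSO (limma adjusted p = 0.00238) and is likewise in the table only through the inhibitor libraries. Of the other 13 ligands 4 rose, among them Inhba (limma adjusted p = 0.0123). Il16, a chemoattractant cytokine, fell to 1285 ± 93.4 with the inhibitor, against 2100.5 ± 189.7 with DMSO (limma adjusted p = 8.21e-05). The ligand rises numbered 3 without inhibitor library 2.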

How the data were processed

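Stranded libraries of poly-A RNA, 3 from inhibitor-treated and 3 from DMSO-treated cells of a single line, were sequenced, per the labels' protocols. Per the submitters' processing notes, DESeq 1.16.0, HTSeq 0.6.0, TopHat2 2.0.10, CASAVA 1.8.2 and mm10 were used, in roles that are not stated. Annotation, strand setting and the handling of reads with several matches: not given in the sources used here. What the authors deposited is a normalized signal per gene, that is, read counts over a library size factor. The values show this, since 100% were whole multiples of 1 step per library, within 1e-06, so whole reads were recovered. Size factors recomputed by median of ratios equalled the inverse of the steps.

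Groups came from the sample titles. In R 4.3.3, limma 3.58.1 with a mean-variance trend compared the groups on log2(normalized count + 1) over all 11644 genes with Benjamini-Hochberg adjustment, 4 residual degrees of freedom and no filter. It was tested on simulated data. The log2 scale understates changes of low genes. Folds are ratios of group means. On recovered reads edgeR 4.0.16 called 5412 genes and DESeq2 1.42.0 4999. Libraries of the same group differed by more than counting noise, with a chi-square per degree of freedom of 9.43 to 20.7.

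The members, roles, lists and tests were chosen with earlier results of these data known, so nothing here is independent support for patterns already seen in them. Called members are given in every library where the higher group averages 50 normalized counts or more, and some others were added after their values were seen. From each pathway list up to 4 called genes with the smallest adjusted p are given with values, and other genes named from the lists were chosen after their values were seen, as were Tnf, Il6, Lta, Inhba and the marker genes. Coordinates and exon lengths are from GENCODE M21 (mm10), which matched 64 of 64 members by symbol. Precision for low genes is limited by read depth.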

Additional observations from a re-analysis of the deposited data

How the results depend on the processing

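No member turned its direction on a called value under any alternative run, and pseudocounts of 0.5 and 5 changed no member's call. DESeq2 gave 5 falls among the members in place of 8. With only genes of a mean of at least 50 normalized counts tested, 15 members rose in place of 27, since fewer members were tested. Requiring at least 2-fold left 1188 genes called in all, 834 risen and 354 fallen, and 16 risen and 1 fallen member. Of the genes of the pathway lists it left 14 risen in place of 33 and 0 fallen in place of 20 by limma, with 0 falls of that size also at an unadjusted p under 0.05, by edgeR and by DESeq2. Leaving out each library in turn gave 21 to 32 rises and 3 to 9 falls among the members, and 24 of the 35 called members kept their call in every such fit, 21 risen and 3 fallen. Over all genes these fits called 4145 to 5346. The cause of these losses was not tested. The size of change of low members moved with the pseudocount and tool. The log2 fold change of Tnfsf4 was 2.04 with a pseudocount of 5 and 5.81 with DESeq2, that of Fas 2.07 with a pseudocount of 5, and that of Il20ra 1.23 with a pseudocount of 5 and 3.13 with DESeq2. Replicate numbers were not taken as pairs in the main test. Same-numbered libraries had correlations of their deviations from the group means of 0.165, 0.0499 and 0.205. Those of differently numbered libraries were -0.159 to -0.00278. Whether the numbers mark pairs was not tested. With the replicate block 5932 genes were called, 31 members rose, 8 fell, and Il1r2, Tgfbr2, Tnfrsf10b and Tnfsf8 gained a call. Log2 CPM with TMM factors and edgeR each lost the call of Tnfrsf1b alone among the members. Read depth limits the members with under 10 reads in every DMSO library.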

Other observations

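Among receptor genes outside the set, Cd28, the co-stimulatory receptor of T cells, stood at 3841, 4058 and 3538 normalized counts with the inhibitor and 4137, 4253 and 4312 with DMSO (limma adjusted p = 0.145), while Lck was at 19.4, 18.2 and 18.3 with the inhibitor and 8.15, 17.8 and 9.82 with DMSO. Flt3, a receptor kinase of early progenitors and dendritic cells, fell to 3670.2, 3725 and 3685 with the inhibitor, against 8926, 7486 and 7767 with DMSO (limma adjusted p = 2.55e-06). Csf1r, the macrophage colony-stimulating factor receptor, was at 3757, 3893 and 4085 with the inhibitor and 1261, 1197 and 1247 with DMSO (limma adjusted p = 3.90e-08), a change in the opposite direction to Flt3. Flt3 is 1 of 6 measured dendritic cell markers, of which 2 rose and 2 fell (all genes: 23.6% up, 22.9% down). The risen ones, Itgax and Zbtb46, were at 1599, 1821 and 1819.8 with the inhibitor and 1007, 797 and 935 with DMSO and at 25.5, 23.8 and 23.7 with the inhibitor and 4.08, 13.7 and 4.91 with DMSO. These genes were chosen after their values were seen.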
